A study of Mus musculus with 6 samples.

Results

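Oxidative phosphorylation is described here through 107 genes, 94 encoded in the nucleus and 13 in mitochondrial DNA, of the 31055 genes in the count table. The members were taken by symbol, from the families of respiratory complex and ATP synthase subunits (Nduf, Sdha to Sdhd, Uqcr, Cox4i, Cox5 to Cox8, Atp5 and their mitochondrial counterparts), if they had at least 100 UMIs over all barcodes. Of 110 symbols that matched, Atp5o and Cox7b2 had 0 UMIs and Cox8c had 1, so these were left out. The 13 mitochondrially encoded members are also the only symbols of mitochondrial DNA in the table.

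The cells were single EGFP-positive non-myocytes from digested hearts of C57BL/6 mice aged 3-6 months. The Dsp_het group held 3 libraries of Wt1CreERT2:Rosa26mTmG:DspW/F mice, which carry 1 conditional allele of Dsp, the gene of the desmosomal linker desmoplakin. The control group held 3 libraries of Wt1CreERT2:Rosa26mTmG mice, so both groups share the Cre driver and the reporter. Wt1 drives the Cre, which is the inducible CreERT2 form. EGFP thus marks cells in which this epicardial transcription factor was active while the Cre was induced, and their descendants. The sort and the removal of myocytes also limit which cells the libraries hold. The labels do not say whether a library is 1 animal, so p-values measure the spread between libraries, which may be technical.

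The respiratory chain passes electrons from NADH through complex I, or from succinate through complex II, to complex III and complex IV, and the proton gradient that results drives ATP synthase, complex V. Mitochondrial DNA encodes core subunits of every complex except complex II, and all other subunits come from the nucleus. Several complex IV subunits have isoforms enriched in striated muscle, in contractile vessel-wall cells or in other tissues. Isoform use can therefore tell cell types apart where total levels do not, but an enriched isoform need not be exclusive to those cells. The heart muscle cell is among the cells richest in these transcripts.

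Promoters of 3 complex IV genes are printed to show the motifs searched, in 1 muscle isoform and in ubiquitous isoforms. Each window of 300 bases runs from 250 bases before to 50 bases after the annotated start, 5′ to 3′ on the gene's strand, from RefSeq on GRCm38.p6. Capitals mark matches, on either strand, to 3 motifs. The TATA box was searched as TATAAA. The site of ETS factors such as GABP was searched as CCGGAAG, and its matches here lie on the reverse strand, so the reverse complement is printed. The NRF1 motif is a palindrome of 10 letters, the first run of capitals in Cox6a1. The motifs do not overlap in these windows. Cox8b, the muscle isoform of the smallest complex IV subunit, lies on chromosome 7 (chr7:140900397-140900696, minus strand). Its ubiquitous partner Cox8a lies on chromosome 19 (chr19:7217567-7217866, minus strand). Cox6a1, the ubiquitous partner of the muscle isoform Cox6a2, lies on chromosome 5 (chr5:115348909-115349208, minus strand).

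Cox8b: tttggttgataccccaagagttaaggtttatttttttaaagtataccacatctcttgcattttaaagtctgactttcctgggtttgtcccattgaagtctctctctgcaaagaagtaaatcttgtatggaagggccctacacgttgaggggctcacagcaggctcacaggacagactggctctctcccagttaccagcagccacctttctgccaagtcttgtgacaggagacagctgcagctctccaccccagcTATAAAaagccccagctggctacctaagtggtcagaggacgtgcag

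Cox8a: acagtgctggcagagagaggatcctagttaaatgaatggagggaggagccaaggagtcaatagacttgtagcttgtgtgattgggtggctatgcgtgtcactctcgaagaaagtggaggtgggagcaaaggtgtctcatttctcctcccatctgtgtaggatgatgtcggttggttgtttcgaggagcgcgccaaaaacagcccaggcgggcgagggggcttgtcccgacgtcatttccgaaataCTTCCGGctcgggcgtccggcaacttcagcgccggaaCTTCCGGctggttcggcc

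Cox6a1: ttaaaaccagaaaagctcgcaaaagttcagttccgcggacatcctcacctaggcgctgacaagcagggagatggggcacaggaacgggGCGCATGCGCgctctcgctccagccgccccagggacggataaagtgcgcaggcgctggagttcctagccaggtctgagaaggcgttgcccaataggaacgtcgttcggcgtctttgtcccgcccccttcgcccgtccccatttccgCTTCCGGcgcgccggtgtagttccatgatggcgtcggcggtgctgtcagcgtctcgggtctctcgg

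The TATAAA match of Cox8b begins 4 bases after the annotated start, and Cox8a and Cox6a1 had none. The muscle isoform Cox7a1 and its ubiquitous partner Cox7a2 held none of the 3 motifs. A window was found by symbol for 76 of the 94 nuclear members. The NRF1 sequence occurred in 7 of these 76 windows (9.21%), among them Cox6a1, Uqcrc1 and Atp5g2, and in 290 of 27025 windows of all genes (1.07%). The ETS sequence occurred in 21 member windows (27.6%) and in 9.93% of all windows, and TATAAA occurred in 7 member windows (9.21%), among them the ubiquitous Atp5l, Ndufa3 and Ndufb7, and in 15.7% of all windows. A match is a string of letters in the window and not a measured binding site.

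The libraries held 7573157 to 17083660 UMIs before filtering. Of 13183 distinct barcodes, 1689 were found in several libraries and 530 in all 6, and each was kept only in the library that held at least 0.5 of its UMIs. The 5092 other occurrences, called copies, were left out; they made up 17.3, 41.7 and 48.9% of the barcodes of Dsp_het libraries 1, 2 and 3, and 23.6, 25.5 and 18.4% of control libraries 1, 2 and 3. After filtering, 12661 cells with 63441660 UMIs remained, 1066 to 2967 per library. Clusters built without the members were named from markers as endothelial-like (9787 cells), fibroblast-like (1219), epicardial-like (599), macrophage-like (220), pericyte-like (212), cardiomyocyte-like (96) and cycling (61), and 467 cells stayed unnamed. Most sorted cells, 77.3%, were therefore endothelial-like, although the labels call the sample epicardial derived. Dsp itself had only 16, 11 and 31 UMIs in Dsp_het libraries, and 13, 15 and 32 in control libraries. Of these, 14, 6 and 15 lay in epicardial-like cells of Dsp_het libraries, and 4, 7 and 18 in those of control libraries. That class held 14.4, 9.39 and 17.96% of UMIs in Dsp_het and 3.33, 5.07 and 6.76% in control libraries. Per UMI of the class, Dsp was thus lower in each Dsp_het library than in each control library, on few UMIs. The reads need not lie in the deleted part, so the deletion could not be checked.

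In all kept cells the mitochondrially encoded members took a larger share of UMIs than the nuclear-encoded ones. The 13 mitochondrially encoded members held 4.10 ± 0.472% of the UMIs of a library and the 94 nuclear members 2.21 ± 0.122% (mean ± SD, n = 6). A UMI counts 1 captured molecule, so levels are not divided by gene length; reads shared with pseudogenes may shift single genes. Levels are given as CPM, the UMIs of a gene scaled to a common total in each library, and spanned a wide range between members.

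Complex I, the NADH dehydrogenase, was led by mt-Nd4, mt-Nd2 and mt-Nd1 with 3263 ± 277, 2934 ± 567 and 1804 ± 282 CPM (SD, n = 6 libraries here and in the next 5 sentences). Its other mitochondrially encoded subunits were mt-Nd3 at 719 ± 182 CPM, mt-Nd5 at 576 ± 34.9 CPM, mt-Nd4l at 550 ± 129 CPM and mt-Nd6 at 70.0 ± 9.79 CPM. Complex III had mt-Cytb, cytochrome b, at 3765 ± 496 CPM, followed by the nuclear subunits Uqcrh at 501 ± 35.6 CPM and Uqcrb at 414 ± 40.1 CPM. Complex IV, cytochrome c oxidase, was led by its catalytic core, mt-Co1, mt-Co3 and mt-Co2, at 6455 ± 755, 6155 ± 1227 and 6147 ± 735 CPM. Complex V was led by mt-Atp6, the membrane subunit of the proton channel, at 8214 ± 883 CPM, and its most abundant nuclear subunits were Atp5j at 767 ± 91.5 CPM and Atp5e at 652 ± 57.7 CPM. mt-Atp8, whose reading frame overlaps that of mt-Atp6, was at 365 ± 64.1 CPM. The order of mt-Co1, mt-Co3 and mt-Co2 does not hold against their spread between libraries, and neither does that of mt-Nd5 and mt-Nd4l.

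Complex II, succinate dehydrogenase, is the only complex with no mitochondrially encoded subunit, and its 4 genes were low. In endothelial-like cells Sdhb, the iron-sulphur subunit, had 108 CPM over the pooled libraries, Sdha, the flavoprotein, 90.6 CPM, Sdhd, a membrane anchor, 78.1 CPM and Sdhc, the other membrane anchor, 53.5 CPM. The 4 genes together held 0.0330% of endothelial-like UMIs, against 0.693% for the 36 nuclear complex I subunits, 0.628% for the 18 of complex IV and 0.576% for the 16 of complex V. In cardiomyocyte-like cells Sdhb reached 286 CPM.

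The mitochondrially encoded share was 3.79 ± 0.436% in endothelial-like cells and 3.98 ± 0.444% in fibroblast-like cells (SD, n = 6 each). It was 5.30 ± 0.906% in epicardial-like cells (n = 6), 5.50 ± 0.50% in pericyte-like cells (n = 4) and 5.57 ± 1.26% in macrophage-like cells (n = 5), counting libraries with at least 20 cells of the class. Every epicardial-like, pericyte-like and macrophage-like value, 4.52% or more, lay above every endothelial-like value, 4.45% or less.

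The nuclear-encoded share followed another order. It was 2.80 ± 0.206% in pericyte-like, 2.49 ± 0.223% in epicardial-like, 2.17 ± 0.125% in endothelial-like, 1.98 ± 0.120% in fibroblast-like and 1.88 ± 0.132% in macrophage-like cells. Macrophage-like cells, with the lowest nuclear share, thus had a mitochondrially encoded share as high as that of pericyte-like cells. The pericyte-like and epicardial-like ranges overlapped, as did those of neighbours further down the order. Median depth also differed between the classes, 10693 UMIs per cell in macrophage-like, 9584 in epicardial-like, 7594 in fibroblast-like, 4533.5 in pericyte-like and 3777 in endothelial-like cells, and its part in these shares was not tested. Pooled over libraries, the 96 cardiomyocyte-like cells had 6.29% mitochondrially encoded and 4.43% nuclear-encoded UMIs, and the 61 cycling cells 3.30% and 2.27%.

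**Figure D1:**
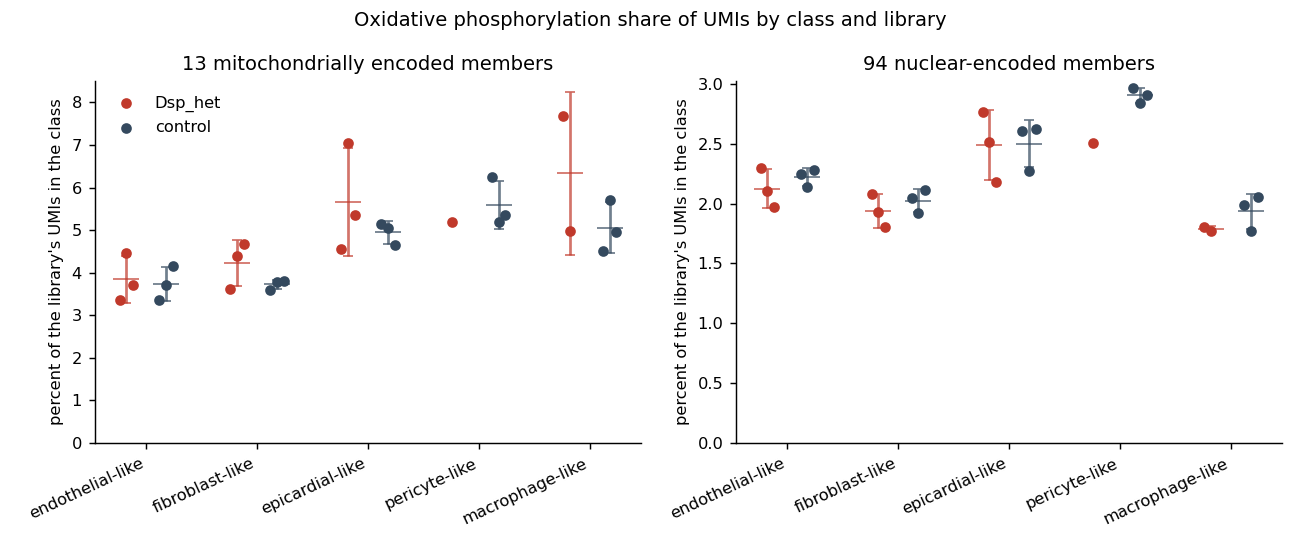
Percent of a library's UMIs in a class (y axis) from the 13 mitochondrially encoded members (left) and the 94 nuclear-encoded members (right), by class (x axis); each point is 1 library with at least 20 cells, Dsp_het left and control right, with the mean and SD where a group has several libraries. Epicardial-like, pericyte-like and macrophage-like cells lie above endothelial-like cells on the left, macrophage-like cells are lowest on the right, and the genotypes overlap except for the nuclear share of the 1 Dsp_het pericyte-like library, 2.50%, below its controls.

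Per gene, cardiomyocyte-like cells had the highest pooled CPM for 78 of 94 nuclear and 13 of 13 mitochondrially encoded members. With them left out, pericyte-like cells were highest for 43 nuclear members and epicardial-like cells for 29, while macrophage-like cells were lowest for 38 nuclear members with all 7 classes compared. Most members varied little between classes. The ratio of the highest to the lowest class had a median of 2.38 and was 5 or less for 98 of 107 members. It was above 10 for 6 members, all complex IV isoforms or the complex IV protein Ndufa4l2; the 6th ratio was 116 and the next, for Cox5a, 6.21. The cells were clustered without these genes, but class differences are given with no test because the same cells made the classes.

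The muscle isoforms Cox6a2, Cox7a1 and Cox8b had their highest level in cardiomyocyte-like cells. These cells held 646 of the 1012 Cox6a2 UMIs and 325 of the 626 Cox8b UMIs of all kept cells, but only 339 of the 836 Cox7a1 UMIs. Cox6a2, which replaces Cox6a1 in heart and skeletal muscle, had 1076 CPM in cardiomyocyte-like cells and 5.46 CPM in endothelial-like cells. It made up 75.5% of Cox6a2 plus Cox6a1 UMIs in cardiomyocyte-like cells (Clopper-Pearson 95% interval 72.4 to 78.3%, counting error only), against 1.56% in endothelial-like and 0.582% in fibroblast-like cells. Cox7a1, the muscle partner of Cox7a2, was at 564 CPM and 41.4% of the pair in cardiomyocyte-like cells. Cox8b was at 541 CPM and 42.3% of the pair with Cox8a.

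The cardiomyocyte-like cells of the libraries were unlike each other. Cox6a2 was 3 of 6, 426 of 458 and 6 of 30 UMIs of its pair in the 2, 18 and 6 such cells of Dsp_het libraries 1, 2 and 3. It was 87.1, 64.2 and 48.9% in the 10, 14 and 46 cells of control libraries 1, 2 and 3. Dsp_het library 2, at 93.0%, held most of the 646 Cox6a2 UMIs of this class, and without it the pooled share was 55.3%. The summed CPM of the 20 cardiomyocyte markers was 6091 in the cells of control library 3 against 17556 over all libraries, so marker levels within this cluster differed between libraries.

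Barcodes removed by the 20% cap on mitochondrially encoded UMIs carried the strongest myocyte signature. The 162 removed barcodes, 20, 22 and 23 in Dsp_het libraries and 14, 22 and 61 in control libraries, had 59.0% mitochondrially encoded UMIs in all. Cox6a2 was 95.6% of its pair in them (1325 UMIs against 61 of Cox6a1), Cox8b 58.8% and Cox7a1 49.4%. Among nuclear UMIs their cardiomyocyte markers reached 66736 CPM, against 1736 CPM in the 540 kept cells with 10 to 20% mitochondrially encoded UMIs and 251 CPM in kept cells with 10% or less. The cap acts on the members themselves, so the shares above are those of cells under it.

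**Figure D2:**
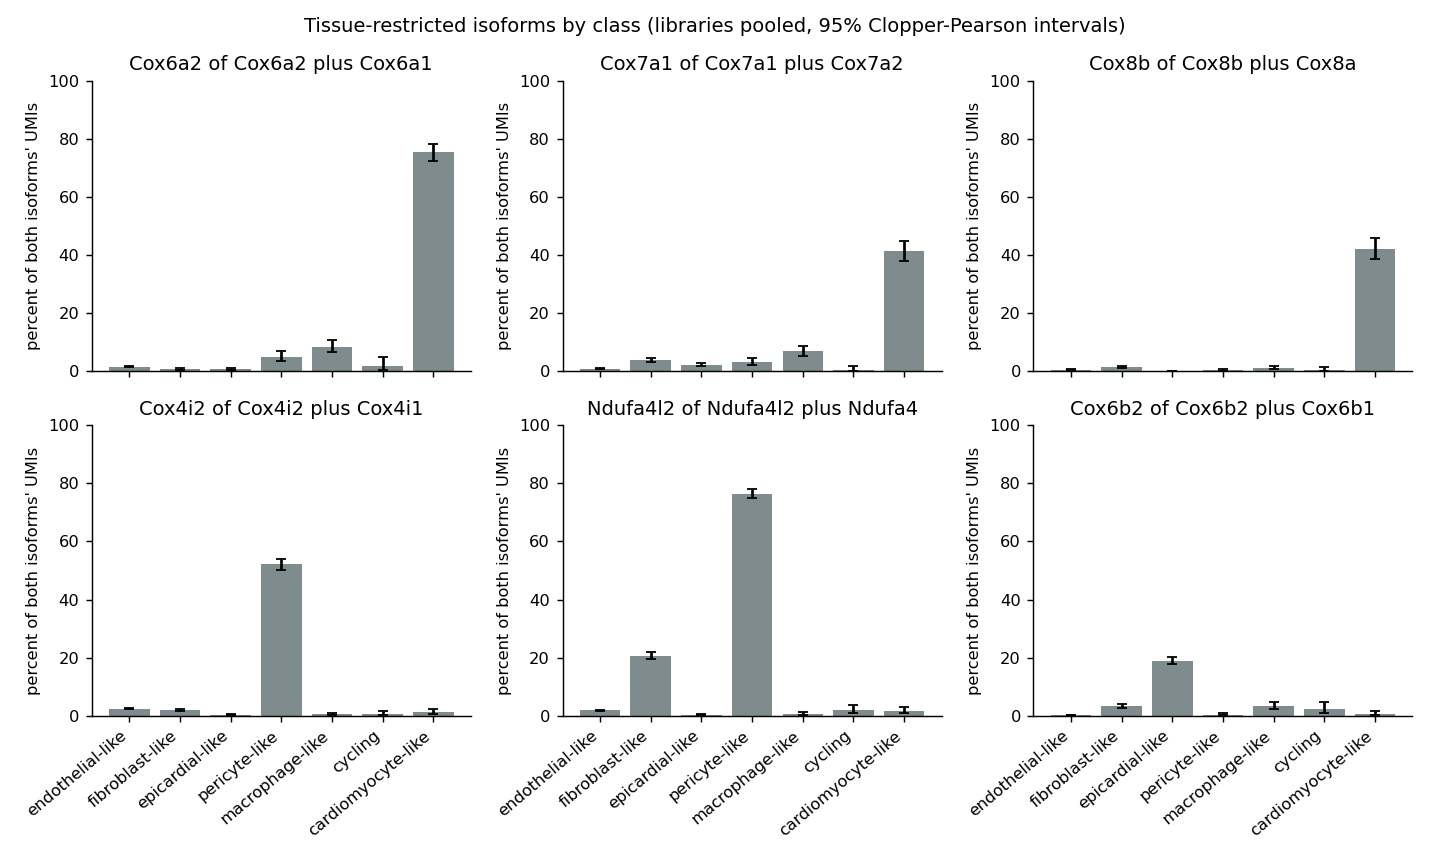
Percent of an isoform among the UMIs of both isoforms of its pair (y axis, 0 to 100) in 7 classes (x axis), with libraries pooled and 95% Clopper-Pearson intervals. Cox6a2, Cox7a1 and Cox8b stand out in cardiomyocyte-like cells at 75.5, 41.4 and 42.3%, Cox4i2 and Ndufa4l2 in pericyte-like cells at 52.2 and 76.5%, and Cox6b2 in epicardial-like cells at 18.8%.

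Outside cardiomyocyte-like cells the 3 muscle isoforms did not keep 1 ratio to each other across classes. The part of free myocyte RNA or of doublets in these levels was not tested. In endothelial-like cells the levels of Cox6a2, Cox7a1 and Cox8b were 0.508, 0.758 and 0.634% of their cardiomyocyte-like CPM, near the median of 0.557% over the 20 cardiomyocyte markers. In fibroblast-like cells Cox7a1 was at 2.63% (interval 2.22 to 3.09%) and Cox8b at 2.03% (1.66 to 2.45%), but Cox6a2 was at 0.123% (0.0653 to 0.210%) and the marker median at 0.245%. In epicardial-like cells Cox7a1 was at 2.10%, while Cox8b, Cox6a2 and the marker median were at 0.122, 0.215 and 0.419%. In macrophage-like cells Cox7a1 was at 4.33% and the marker median at 1.69%. In pericyte-like cells Cox6a2, Cox7a1 and Cox8b were at 1.77, 3.70 and 0.882%, with a marker median of 1.32%.

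These percentages rest on the few cardiomyocyte-like cells that give their base. Without Dsp_het library 2 the cardiomyocyte-like level of Cox6a2 was 470 CPM, that of Cox7a1 258 CPM and that of Cox8b 254 CPM. The endothelial-like levels were then 1.27, 1.66 and 1.42% of them, with a marker median of 1.49% over the 19 markers left. Without control library 3 they were 0.200, 0.422 and 0.316%, with a marker median of 0.254%. In fibroblast-like cells Cox6a2, Cox7a1 and Cox8b were at 0.314, 6.14 and 4.24% without Dsp_het library 2 (marker median 0.531%) and at 0.042, 1.61 and 1.23% without control library 3 (0.10%). The sizes moved by over 1.5 times, while in fibroblast-like cells Cox7a1 and Cox8b lay above the marker median and Cox6a2 below it with any 1 of the 6 libraries left out.

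Cox7a1 and Cox8b lay above Cox6a2 in the fibroblast-like cells of each library. Cox8b had 9.52, 12.6 and 13.9 CPM in fibroblast-like cells of Dsp_het libraries 1, 2 and 3, and 6.92, 14.4 and 13.1 CPM in those of control libraries 1, 2 and 3. Cox6a2 had 0.665, 0 and 0.871 CPM in the same Dsp_het cells, and 0.989, 1.44 and 4.84 CPM in the control cells. Cox8b was thus above Cox6a2 in 6 of 6 libraries, whereas Cox6a2 was above Cox8b in the pooled cardiomyocyte-like cells. That pooled order also held without Dsp_het library 2, at 470 CPM of Cox6a2 against 254 CPM of Cox8b. Cox7a1 had 17.5, 5.81 and 10.4 CPM in Dsp_het and 11.9, 14.4 and 18.7 CPM in control fibroblast-like cells. Cox7a1 and Cox8b were also seen in 1 fibroblast-like cluster and hardly in the other. They had 145 and 108 UMIs (15.6 and 11.6 CPM) in 1150 cells led by Gsn, Lum and Ptn. The 69 cells led by Ccl11 and Igfbp3 had 1 and 0 UMIs (1.79 and 0 CPM). Cardiomyocyte markers summed to 42.6 and 10.7 CPM in these clusters, and only 1 library had at least 20 cells of the smaller. The part of myocyte RNA or of single libraries in this contrast was not tested.

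Cardiomyocyte markers behind this comparison were low but present. Their summed CPM in fibroblast-like cells was 16.8, 23.2 and 61.8 in Dsp_het libraries and 23.7, 86.2 and 102 in control libraries. Actn2 was the 1 marker of 20 with no UMI in fibroblast-like cells, and Nppa, Ryr2 and Actn2 had none in epicardial-like cells. Myh6 was at 0.401% of its cardiomyocyte-like level in fibroblast-like cells. The highest marker in epicardial-like cells was Fabp3 at 4.52%, a fatty acid carrier that other cells also express.

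**Figure D3:**
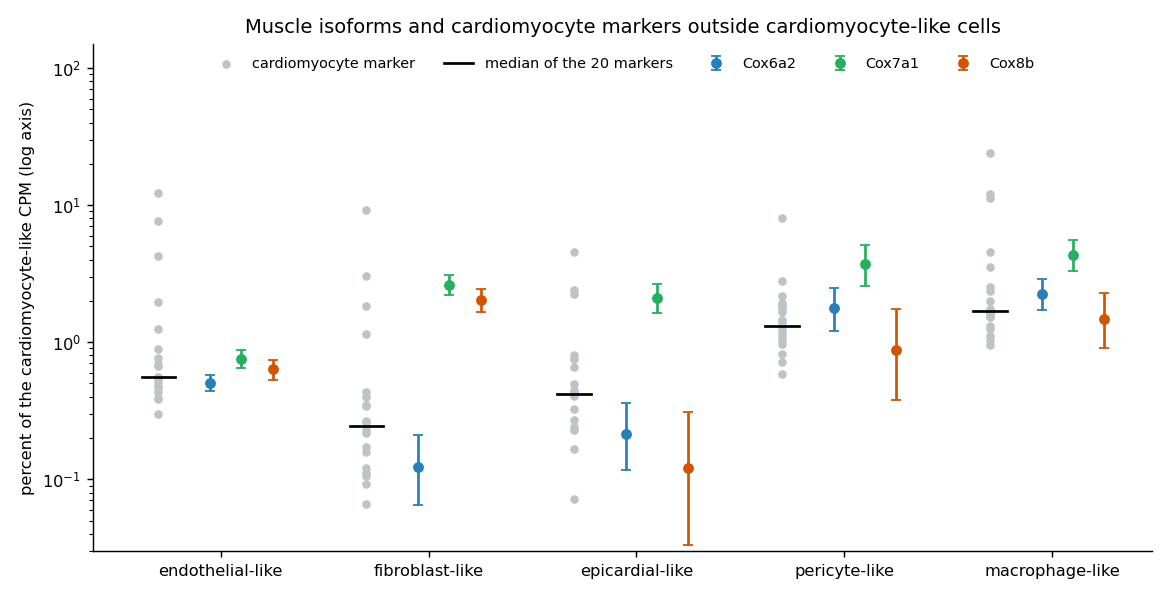
Level of Cox6a2, Cox7a1, Cox8b and each cardiomyocyte marker in 5 classes (x axis) as percent of its CPM in cardiomyocyte-like cells (y axis, log scale), libraries pooled; bars on the isoforms are 95% counting intervals, the black line is the median of the 20 markers, and markers with no UMI are not drawn. The isoforms lie near the marker median in endothelial-like cells, while Cox7a1 and Cox8b lie above it at 2.63 and 2.03% in fibroblast-like cells. Cox7a1 also lies above it in epicardial-like, pericyte-like and macrophage-like cells, at 2.10, 3.70 and 4.33%.

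Pericyte-like cells were set apart by Cox4i2 and Ndufa4l2. Cox4i2, an isoform of the complex IV subunit Cox4i1 known from lung and from oxygen-sensing cells, had 728 CPM in the 26 pericyte-like cells of Dsp_het library 3, and 879, 1088 and 909 CPM in those of control libraries 1, 2 and 3. It made up 52.2% of its pair (interval 50.3 to 54.0%), against 2.29% in endothelial-like, 1.85% in fibroblast-like and 0.216% in epicardial-like cells. Dsp_het libraries 1 and 2, with only 10 and 9 pericyte-like cells, had shares of 54.6 and 54.5%. Both genes were among the leading genes of this cluster, which was built without them.

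Ndufa4l2, the hypoxia-responsive relative of the complex IV protein Ndufa4, had 1018 CPM in pericyte-like cells of Dsp_het library 3 and 1225, 1562 and 1232 CPM in those of control libraries 1, 2 and 3. It was 76.5% of the pair in pericyte-like cells. In fibroblast-like cells it was the minor form, with 16.4, 25.4 and 20.2% of the pair in Dsp_het libraries. It was 19.6, 25.2 and 29.4% in control libraries, and 20.7% pooled. Its level was 104 CPM in the larger fibroblast-like cluster and 14.3 CPM, from 8 UMIs, in the smaller. The share of Ndufa4l2 was much lower in endothelial-like cells, 1.84%, and in epicardial-like cells, 0.217%. Within endothelial-like cells, the arterial-marker cluster led by Gja4, Alox12 and Sema3g had the highest Cox4i2 level, 92.8 CPM, against 1.87 to 27.1 CPM in the other 9 endothelial-like clusters.

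Cox6b2, a testis-enriched isoform of the complex IV subunit Cox6b1, was the isoform of the epicardial-like class. It had 143, 100 and 95.7 CPM in epicardial-like cells of Dsp_het libraries 1, 2 and 3, and 182, 125 and 127 CPM in those of control libraries 1, 2 and 3. That was 19.8, 17.3 and 16.9% of the pair in Dsp_het and 23.9, 21.8 and 17.9% in control libraries, with overlapping groups. Cox6b2 had 16.03 CPM in macrophage-like, 12.4 CPM in fibroblast-like and 1.06 CPM in endothelial-like cells.

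The remaining isoforms were broad. Cox8a was highest in pericyte-like cells at 1254 CPM and lowest in endothelial-like cells at 646 CPM, with 739 CPM in cardiomyocyte-like cells, where Cox8b adds to it. Cox7a2l, a protein of complex III and IV supercomplexes, stayed between 268 CPM in fibroblast-like and 513 CPM in cardiomyocyte-like cells. Of the 3 genes of the ATP synthase c subunit, which encode the same mature protein, Atp5g2 led in endothelial-like cells at 419 CPM, against 230 CPM for Atp5g1 and 190 CPM for Atp5g3. In cardiomyocyte-like cells Atp5g1 led at 1152 CPM, with Atp5g2 at 544 CPM and Atp5g3 at 473 CPM.

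In the make-up of the mitochondrially encoded UMIs, Dsp_het libraries 2 and 3 stood apart from the other 4 libraries. In Dsp_het libraries 1, 2 and 3, mt-Nd4l was 2.03, 0.905 and 0.815% of these UMIs in endothelial-like cells, and in control libraries 1, 2 and 3 it was 1.65, 1.49 and 1.52%. Dsp_het libraries 2 and 3 lay below the other libraries in each of the 4 classes compared (endothelial-like, fibroblast-like, epicardial-like and macrophage-like), at 0.770 to 0.991% against 1.22 to 2.03%. Dsp_het library 1 had too few macrophage-like cells to count in that class, and lay with or above the controls in the others. Dsp_het libraries 2 and 3 were also below the other libraries for mt-Nd4, at 6.06 to 7.51% against 8.40 to 9.81%, and for mt-Atp8, at 0.653 to 0.726% against 0.861 to 1.17%. In the opposite direction, mt-Co3 was 15.6 to 18.2% in these libraries against 13.3 to 15.3% in the others, and mt-Nd3 1.83 to 2.50% against 1.14 to 1.74%. All these are shares of 1 total, so lower shares of some transcripts bring higher shares of others.

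Other mitochondrially encoded transcripts did not split the libraries this way in all 4 classes. mt-Nd1 did so in 3 classes, upwards, and mt-Nd5 in 3, downwards; mt-Co1 and mt-Co2 did in 1 class each. mt-Nd2, mt-Atp6, mt-Cytb and mt-Nd6, the subunit read from the other strand, did in none. mt-Nd4l (M:9877-10173) and mt-Nd4 (M:10167-11544), in GENCODE M21 positions on GRCm38, overlap on 1 transcript, so reads may be split between them. Dsp_het libraries 2 and 3 also had the highest shares of copies, 41.7 and 48.9% of barcodes, and the part of this in the pattern was not tested.

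**Figure D4:**
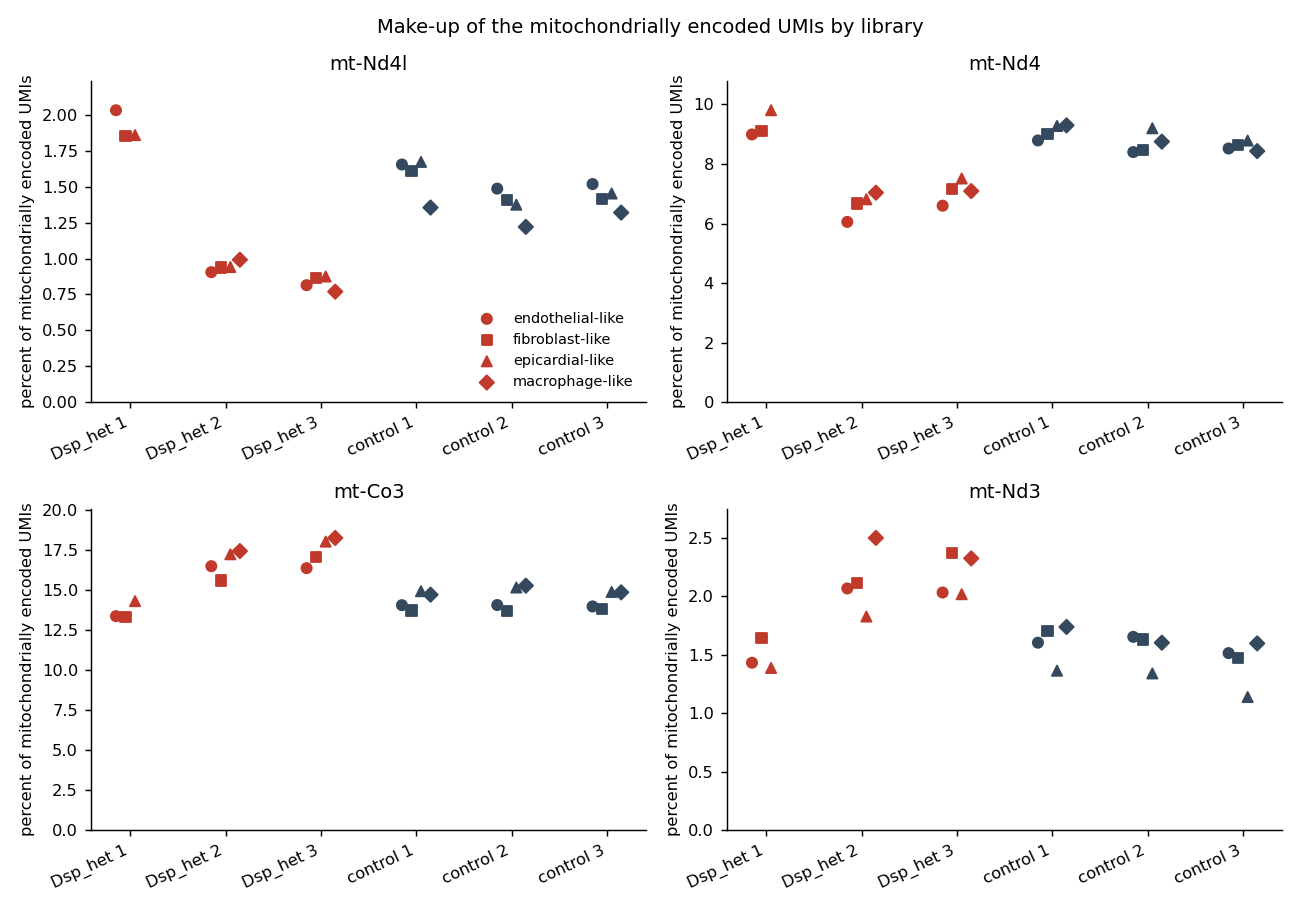
Percent of mitochondrially encoded UMIs (y axis) from mt-Nd4l, mt-Nd4, mt-Co3 and mt-Nd3 in each library (x axis, Dsp_het red and control dark), 1 marker per class with at least 20 cells. Dsp_het libraries 2 and 3 stand apart in each class shown, with mt-Nd4l at 0.770 to 0.991%. Dsp_het library 1, drawn without macrophage-like cells, does not.

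The genotype comparison asked whether heterozygous loss of Dsp in this lineage changes these transcripts. No member passed an adjusted p of 0.05 in any of the 5 comparisons of Dsp_het over control libraries by edgeR's quasi-likelihood test, adjusted over all genes tested. In all kept cells 0 of 107 members were called, and 0% of the 12996 genes tested. In endothelial-like cells 0 of 106 were called and 0% of all genes, in fibroblast-like cells 0 of 105 and 0.0117%, in epicardial-like cells 0 of 101 and 0%, and in macrophage-like cells 0 of 97 and 0.0167%. Macrophage-like cells were compared in 2 Dsp_het and 3 control libraries, and pericyte-like, cycling and cardiomyocyte-like cells were in too few libraries to test. DESeq2 called 1 member, Cox6b2 in all kept cells, and none in the classes.

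At an unadjusted p under 0.05, 1 member was higher and 0 lower in all kept cells, where 9.24 and 3.36% of all genes were. In endothelial-like cells 0 were higher and 2 lower (2.94 and 1.6% of all genes), and in fibroblast-like cells 2 higher and 0 lower (1.72 and 1.61%). In epicardial-like cells 2 were higher and 0 lower (1.68 and 1.78%), and in macrophage-like cells 3 higher and 9 lower (3.23 and 3.01%). In macrophage-like cells the 3 higher were mitochondrially encoded and the 9 lower nuclear-encoded. DESeq2 gave 1 and 0, 0 and 1, 2 and 0, 1 and 0, and 3 and 4 in the same order. Members with the smallest p in each direction are given next; all missed the adjusted threshold.

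In all kept cells Cox6b2 had 26.9, 13.4 and 19.98 normalized CPM in Dsp_het libraries, against 8.87, 9.15 and 10.8 in control libraries. The groups did not overlap. Dsp_het over control came to 1.07 on the log2 scale (SE 0.25, adjusted p = 0.185 by edgeR). Its adjusted p was 0.0156 by DESeq2 and 0.0447 without Dsp_het library 2, within a range of 0.0156 to 0.531 over the alternatives. The share of epicardial-like UMIs, the class that carries Cox6b2, was 14.4, 9.39 and 17.96% in Dsp_het libraries and 3.33, 5.07 and 6.76% in control libraries. Within epicardial-like cells the log2 fold change of Cox6b2 was -0.29 (SE 0.21, adjusted p = 1.00 by edgeR), or 0.24 without the 5% of cells with most UMIs, and within fibroblast-like cells 0.07 (SE 0.51).

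Cox4i2 and Ndufa4l2, highest in pericyte-like cells, were lower on average in Dsp_het libraries without passing the test. Cox4i2 had 14.5, 13.6 and 43.1 normalized CPM in all kept cells of Dsp_het libraries, and 17.6, 45.9 and 78.9 in those of control libraries (log2 fold change -1.01, SE 0.61). Ndufa4l2 had 38.1, 24.1 and 65.1 normalized CPM in Dsp_het and 23.9, 64.3 and 109 in control libraries (log2 fold change -0.64, SE 0.54). Pericyte-like cells were 0.337, 0.507 and 2.44% of cells in Dsp_het and 0.818, 2.14 and 4.00% in control libraries. The groups overlapped for both genes and for the cells, and the libraries stood in another order for each gene than for the cells. The part of class shares in these values, and in that of Cox6b2, was not tested. The next members by p in all kept cells were mt-Nd3 (log2 fold change 0.35, SE 0.21), Ndufaf2, a complex I assembly factor (-0.24, SE 0.12), and Uqcrq, a complex III subunit (-0.20, SE 0.12).

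In endothelial-like cells the members with the smallest p were muscle isoforms. Cox8b had 1.78, 2.52 and 1.64 normalized CPM in Dsp_het libraries, against 2.89, 4.73 and 5.89 in control libraries. The groups did not overlap, and the fitted log2 difference was -1.17 (SE 0.36, adjusted p = 0.761 by edgeR). Cox6a2 had 0.888, 2.84 and 4.92 normalized CPM in Dsp_het and 1.69, 8.48 and 12.3 in control libraries, with overlap (log2 fold change -1.44, SE 0.64, adjusted p = 1.00 by edgeR). The summed CPM of the 20 cardiomyocyte markers in the same cells was 23.2, 69.2 and 94.5 in Dsp_het and 37.4, 151 and 186 in control libraries, and its part in these differences was not tested. None of the 20 markers was at 0 in the pooled cells. Of the 15 testable there, 6 were lower and 0 higher at an unadjusted p under 0.05. Over all genes 1.6% were lower and 2.94% higher at that threshold. In all kept cells the markers went the other way, with 16 of 18 above 0 and a median log2 fold change of 0.50. Their summed CPM there was 36.3, 901 and 121 in Dsp_het and 139, 255 and 292 in control libraries. Without control library 3 the value of Cox6a2 in endothelial-like cells was -0.78. Upwards, the smallest p belonged to Cox7b, a complex IV subunit (log2 fold change 0.28, SE 0.19), and Atp5s, an ATP synthase factor (0.36, SE 0.26). Without Dsp_het library 1 they were 0.07 and 0.01.

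In fibroblast-like cells mt-Nd3 had 617, 915 and 1073 normalized CPM in Dsp_het libraries, against 598, 628 and 566 in control libraries. Dsp_het library 1 lay among the controls. The fitted log2 difference was 0.54 (SE 0.18, adjusted p = 1.00 by edgeR). It was 0.50 without Dsp_het library 2 and 0.36 without Dsp_het library 3, the libraries that stood apart in mitochondrial make-up. mt-Nd1 followed (log2 fold change 0.41, SE 0.16), and Ndufa4l2 (-0.44, SE 0.22) and Cox4i2 (-0.81, SE 0.45) were the lowest by p. Without control library 3 Ndufa4l2 was at -0.13 and Cox4i2 at 0.10.

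In epicardial-like cells mt-Nd3 had 640, 1309 and 1087 normalized CPM in Dsp_het and 699, 655 and 530 in control libraries, again with Dsp_het library 1 among the controls. The fitted log2 difference was 0.69 (SE 0.22, adjusted p = 1.00 by edgeR). It was 0.48 without Dsp_het library 2 and 0.63 without Dsp_het library 3. Sdhd of complex II had 120, 92.2 and 93.0 normalized CPM in Dsp_het and 81.9, 66.3 and 79.8 in control libraries, which did not overlap (log2 fold change 0.42, SE 0.19, adjusted p = 1.00 by edgeR). Cox6b2 and Atp5o.1, an ATP synthase stalk subunit, had the smallest p downwards, at -0.29 (SE 0.21) and -0.23 (SE 0.17).

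In macrophage-like cells mt-Nd3 had 1888 and 1106 normalized CPM in Dsp_het libraries 2 and 3, against 789, 941 and 817 in control libraries. The groups did not overlap (log2 fold change 0.81, SE 0.19, adjusted p = 0.320 by edgeR). mt-Co3 had a log2 fold change of 0.49 (SE 0.16), and 2 nuclear subunits were lowest by p, Ndufb8 of complex I (-0.59, SE 0.20) and Cox7b (-0.58, SE 0.19). Ndufb8 had 177 and 195 normalized CPM in Dsp_het and 259, 276 and 309 in control libraries. This comparison holds only the pair of Dsp_het libraries whose mitochondrial make-up stood apart, so genotype and library cannot be told apart in it. Without Dsp_het library 2 mt-Nd3 was at 0.37 (adjusted p = 0.876 by edgeR) and mt-Co3 at 0.15. Without Dsp_het library 3 mt-Nd3 was at 1.12 (adjusted p = 0.0152 by edgeR) and mt-Co3 at 0.74. The adjusted p of mt-Nd3 ranged from 0.00148 to 0.953 over the alternatives.

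The median log2 fold change of the nuclear members was -0.05 in all kept cells, -0.09 in endothelial-like, -0.05 in fibroblast-like, 0.02 in epicardial-like and -0.19 in macrophage-like cells. Over all genes tested it was between -0.01 and 0.01 in each comparison. For the mitochondrially encoded members it was 0.08, 0.01, 0.12, 0.22 and 0.18 in the same order. Without Dsp_het library 1 the nuclear median was -0.16 in endothelial-like and -0.15 in fibroblast-like cells, and without Dsp_het library 3 it was -0.03 and -0.01. In all kept cells the nuclear median was 0.02 without Dsp_het library 3 and 0.01 without control library 3. In epicardial-like cells it was -0.08 without Dsp_het library 1 and -0.07 without control library 2. The mitochondrially encoded median without Dsp_het library 2 was -0.03 in all kept, -0.13 in endothelial-like and -0.16 in macrophage-like cells. Without control library 1 it was -0.02 in all kept and -0.05 in endothelial-like cells, and without control library 2 it was -0.02 in endothelial-like cells. When 1 library was left out, the nuclear median thus changed sign in all kept and epicardial-like cells. It stayed negative in endothelial-like, fibroblast-like and macrophage-like cells. The mitochondrially encoded median changed sign in all kept, endothelial-like and macrophage-like cells. It stayed positive in fibroblast-like and epicardial-like cells.

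**Figure D5:**
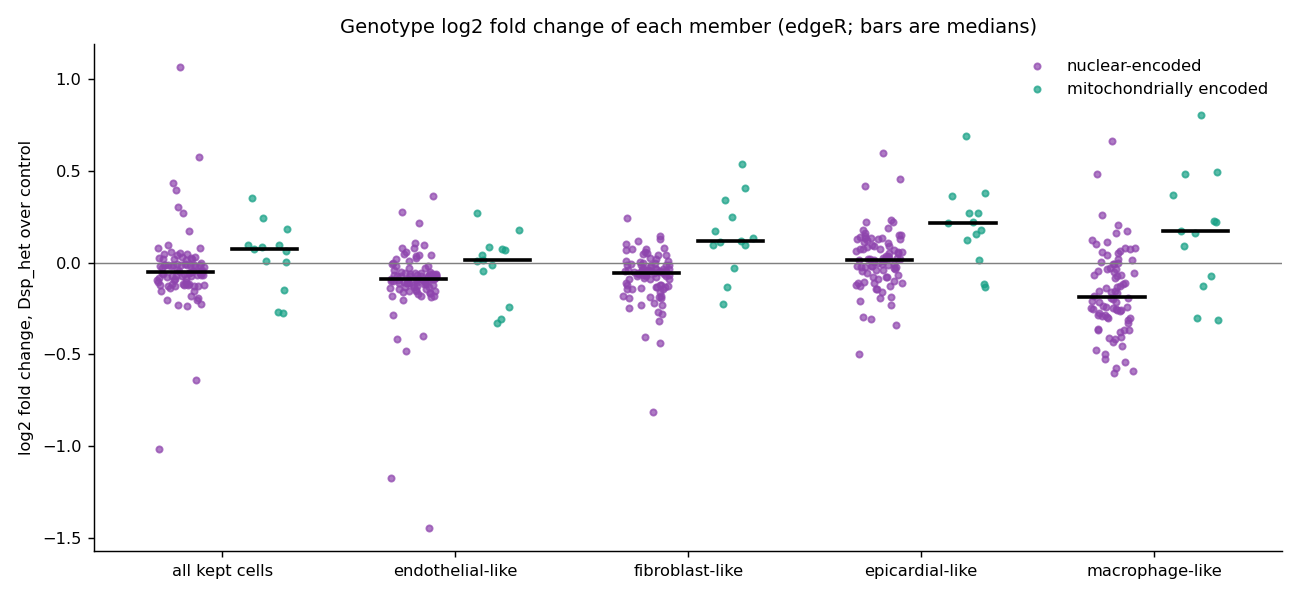
Log2 fold change of Dsp_het over control libraries (y axis) for each member tested, in all kept cells and 4 classes (x axis), nuclear-encoded left and mitochondrially encoded right; points are genes and bars are medians. Medians lie between -0.19 and 0.22, and no member passed the adjusted threshold by edgeR.

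Whether the genotype difference itself differed between classes was tested as an interaction in the 3 classes with most UMIs. Of 106 members tested, 0 were called for fibroblast-like minus endothelial-like (0.00893% of all genes called), 0 for epicardial-like minus endothelial-like (0%) and 0 for fibroblast-like minus epicardial-like (0%) by edgeR. At an unadjusted p under 0.05 there were 2, 7 and 6 members, where 4.04, 5.88 and 4.86% of all genes passed; DESeq2 was not run on this test. The smallest p belonged to Atp5s in the first contrast and to Cox4i2 in the others, which had 10 UMIs in all epicardial-like cells, 7, 1 and 2 in Dsp_het libraries and 0 in each control library.

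Related gene lists showed the same lack of calls. Of 39 assembly factors and electron carriers outside the family rule tested in all kept cells, 0 were called, and 3 were higher and 0 lower at an unadjusted p under 0.05; the electron carrier Etfa had the smallest p (log2 fold change 0.41). Over all genes 9.24% were higher and 3.36% lower at that threshold. Of 17 tricarboxylic acid cycle genes 0 passed even the unadjusted threshold there, and of 17 glycolysis genes 2 were higher and 1 lower, led by the lactate transporter Slc16a1 (1.13). Of 16 genes of mitochondrial transcription and biogenesis 1 was lower, Gabpb1 (-0.35), which encodes a subunit of the ETS factor GABP. Of 18 immediate early and heat shock genes, which respond to tissue dissociation, 8 were higher and 0 lower at the unadjusted threshold in epicardial-like cells (median log2 fold change 0.49), where 1.68 and 1.78% of all genes were. In fibroblast-like cells 6 were higher and 0 lower (0.37), against 1.72 and 1.61% of all genes. The counts were 4 and 0 in macrophage-like cells (0.28), against 3.23 and 3.01%, and 4 and 0 in all kept cells (0.25), against 9.24 and 3.36%. In endothelial-like cells 1 was higher and 1 lower, with a median of -0.27, against 2.94 and 1.6% of all genes. None was called by edgeR after adjustment, and the part of these genes in the member values was not tested.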

How the data were processed

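The authors deposited raw UMI counts per gene and barcode, with the total counts and number of genes of each barcode, which equalled the column sums for 18283 of 18283 barcodes. Per the submitters' processing notes the build was GRCm38 and Seurat was used; for the aligner and the counter the sources used here give no name. Cells had at least 500 UMIs, 200 genes and at most 20% mitochondrially encoded UMIs. Scanpy 1.11.5 clustered them on 2000 variable genes without the members, 30 components, 15 neighbours and Leiden resolution 1 (19 clusters). Clusters were named from markers; a haemoglobin-led cluster was left unnamed after clusters had been seen. No doublet caller was run. Counts were summed per library and class (at least 20 cells) and fitted with edgeR 4.0.16 (quasi-likelihood, TMM, filterByExpr with a minimum count of 10, two-sided, Benjamini-Hochberg over all genes) or DESeq2 1.42.0, and checked on simulated data with 200 changed genes. Normalized CPM is CPM after TMM. Shares and isoforms were described without a test.

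Named were the mitochondrially encoded members, complex II, isoform pairs, the highest members of each complex and, as none passed, the 2 members with the smallest p per direction and comparison. Members and lists were chosen with earlier results of these data known. Intervals cover counting error only.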

Additional observations from a re-analysis of the deposited data

How the results depend on the processing

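The number of members called changed with the tool, the filter and single libraries. The number of members called higher in all kept cells was 1 with DESeq2, and 0 to 1 when each library was left out in turn, the 1 being without Dsp_het library 2. In macrophage-like cells it was 0 to 1, the 1 being without Dsp_het library 3, which leaves 1 Dsp_het library assumed to vary like the others, and 2 with no filter on low counts. With no filter 1 member was called lower in endothelial-like and 1 higher in epicardial-like cells. In these fits Cox6b2 (all kept cells), Cox6a2 (endothelial-like) mt-Nd3 (epicardial-like and macrophage-like) and, with no filter, mt-Co3 (macrophage-like) passed. The cause was not tested.

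Replicate numbers were shared by the genotypes, but same-numbered libraries did not deviate together, with correlations of 0.019, -0.077 and -0.060 in all kept cells. With a replicate block, 0 members were called higher and 0 lower in each comparison.

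The Cox6a2 share in cardiomyocyte-like cells was 56.5% with copies kept, 95.4% with no mitochondrial cap and 70.5% with at least 1000 UMIs per cell. It was 55.3 to 85.4% when each library was left out, without Dsp_het library 2 and control library 3. Cox7a1 was at 26.0% with copies and 53.6% with no cap, and 27.4 to 49.9% over libraries left out. Cox8b was at 24.5, 67.9 and 37.8% with copies, no cap and 1000 UMIs, and 26.0 to 53.8% over libraries left out. Of pericyte-like cells, Cox4i2 and Ndufa4l2 were at 50.1 and 74.3% with copies kept, and the mitochondrially encoded share was 4.97% with a cap of 10% and 6.05% with none.

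Signs turned for Cox4i2 in fibroblast-like cells, from -1.11 to 0.10 over libraries left out, and for Cox6b2 in epicardial-like cells, 0.24 without the 5% of cells with most UMIs, an alternative chosen after seeing the data. Macrophage-like cells could not be tested with the 10% cap or without those 5%. Over all genes in all kept cells, DESeq2 called 344 higher and 39 lower, against 0 and 0 by edgeR.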
